A study of Homo sapiens with 6 samples.

Results

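CYP1A1, CYP1B1 and ALDH3A1 are xenobiotic-metabolising enzyme genes that the aryl hydrocarbon receptor (AHR) is known to induce. They were chosen by name from the deposited table, and 3 of its 459 genes belong to the set. The libraries came from SK-OV-3, a long-established line of human ovarian cancer cells labelled WT in genotype. Fulvic acid (FA), a water-soluble fraction of humic substances, was given at 100 µg/ml for 48 h to the cells of 3 libraries (FA-1 to FA-3). Cells of the other 3 libraries (control-1 to control-3) are labelled as having no treatment, and no vehicle is named. The series has 1 cell line, 1 dose and 1 time, and its title names CYP1A1 as a gene that FA raises. Whether the 3 libraries of a group stem from separate cultures is not stated, so p-values reflect only how these libraries differ, and that spread may be technical.

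The AHR is a ligand-activated transcription factor that rests in the cytosol in a complex with heat shock protein HSP90. Once it has bound a ligand, often a planar aromatic molecule, it enters the nucleus, pairs with its partner ARNT and binds DNA at xenobiotic response elements, whose core reads GCGTG. CYP1A1 and CYP1B1 encode cytochrome P450 monooxygenases that oxidise polycyclic aromatic hydrocarbons and estradiol, and CYP1A1 is the usual reporter of AHR activity. ALDH3A1 encodes an aldehyde dehydrogenase that oxidises aromatic and medium-chain aldehydes and is also a major soluble protein of the cornea.

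CYP1A1 (ENSG00000140465) lies on chromosome 15 at positions 74719542 to 74725610, CYP1B1 (ENSG00000138061) on chromosome 2 at positions 38066973 to 38109902, and ALDH3A1 (ENSG00000108602) on chromosome 17 at positions 19737984 to 19748943. All are on the minus strand of GRCh38 in GENCODE release 29. Of the 3 genes, CYP1A1 matched an entry among the RefSeq promoter sequences (GRCh38.p14). Its 250 bases before the RefSeq transcription start are chr15:74725529-74725778 on the minus strand. They are shown because they hold a match to the core sequence near the start of the gene with the largest change. Whether the AHR binds at this match was not tested. The RefSeq start lies within the gene as GENCODE places it, so part of this window is inside the positions given above. Capitals mark GCGTG.
CYP1A1 promoter: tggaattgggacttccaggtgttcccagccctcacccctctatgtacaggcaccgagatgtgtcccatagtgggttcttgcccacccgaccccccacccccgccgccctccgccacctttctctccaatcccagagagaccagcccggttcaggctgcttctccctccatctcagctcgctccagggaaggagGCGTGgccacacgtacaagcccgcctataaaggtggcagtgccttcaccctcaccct
The window held 1 match, on the coding strand, with its first base 57 bases before the start. Either GCGTG or its reverse complement CACGC occurred in 32.2% of 35116 such windows and in at least 1 window of 36.2% of 27305 genes, so a match in this window is common. Of other AHR targets in the table, AHRR had it in 2 of 2 windows, TIPARP in 1 of 3 and NEDD9 in 0 of 3.

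The sequences also bear on whether reads can be told apart. CYP1A1 has a close relative next to it on chromosome 15, CYP1A2. The longest run of bases that the coding transcripts of both share is 40 bases, in exon 2 of each (chr15:74722796-74722835 on the minus strand in CYP1A1, GENCODE release 29, GRCh38). It is shown because it is the longest stretch over which these transcripts of CYP1A1 and CYP1A2 are identical. Likeness that allows mismatches was not measured. Capitals mark the 13 bases that also occur in CYP1B1, the longest run shared by CYP1A1 and CYP1B1.
CYP1A1 and CYP1A2 exon 2: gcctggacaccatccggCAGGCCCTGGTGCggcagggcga
None of the 2636 stretches of 50 bases in the longest coding transcript of CYP1A1 occurred in the transcript of another gene on either strand. In CYP1B1, 532 of 5201 such stretches (10.2%) matched the antisense gene CYP1B1-AS1 on the opposite strand, and none matched a gene on the same strand. In ALDH3A1, 53 of 1876 (2.83%) matched the antisense gene AC005722.3, and again none matched on the same strand. By annotated exons, 13.0% of the exonic bases of CYP1B1 and 2.50% of those of ALDH3A1 lie in exons of another gene, against 0% for CYP1A1. Whether the libraries kept strand is not stated, so reads from CYP1B1 and its antisense gene could not be told apart over that stretch.

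All 3 genes were higher with FA, from very unequal baselines and by very unequal folds. Of the 459 genes in the authors' deposited table, 25.5% (117 genes) were higher and 74.5% (342 genes) lower, and every listed gene had passed the authors' limits. In each of the 3 enzymes the FPKM of the groups did not overlap, which was so in 99.8% of all listed genes and is thus a property of the table. CYP1A1 had the largest log2 fold change of the 459, CYP1B1 ranked 5 and ALDH3A1 ranked 73 of the 117 higher genes. The order of the levels was different, with CYP1B1 far above ALDH3A1 and CYP1A1 lowest in the FA libraries. Levels are given in FPKM, the authors' measure of fragments per kilobase of gene that also scales for the depth of a library, so that genes can be compared per length.

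CYP1A1 had 15.5, 16.4 and 15.4 FPKM in FA-1, FA-2 and FA-3, against 0.191, 0.266 and 0.269 FPKM in control-1, control-2 and control-3. The FA libraries lay close together, and the lowest of them was 57.1 times the highest control. Mean levels were 15.8 ± 0.58 FPKM with FA and 0.242 ± 0.044 FPKM in controls (SD, n = 3 each). Behind these levels stood 1597, 1851 and 1985 counts in the FA libraries, against 23, 35 and 35 counts in the control libraries. The baseline is therefore a handful of reads. Scaled to depth, control-1 had 0.529 CPM with an exact Poisson 95% interval of 0.336 to 0.794 CPM, which contains the 0.717 and 0.738 CPM of control-2 and control-3 (CPM are counts scaled to a depth of 1000000 fragments; counting error only). The depth-scaled counts gave a log2 fold change of 5.91 (SE 0.19; edgeR quasi-likelihood test, Benjamini-Hochberg adjusted p = 3.82e-10), a 60.2-fold rise. The authors' deposited table gives 5.98 on the log2 scale with an FDR of 1.88e-195.

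CYP1B1 was already well expressed without FA. It had 270.2, 251.7 and 289.3 FPKM in FA-1, FA-2 and FA-3, against 48.8, 39.6 and 31.9 FPKM in control-1, control-2 and control-3. The groups did not overlap, and the lowest FA library was 5.16 times the highest control. The means were 270.4 ± 18.8 FPKM with FA and 40.1 ± 8.46 FPKM in controls (SD, n = 3 each). The level ranked 3 among the 459 listed genes in the FA libraries and 45 in the controls. The log2 fold change was 2.75 (SE 0.16; edgeR adjusted p = 4.93e-08), a 6.75-fold rise, against 2.81 and an FDR of 1.42e-57 in the authors' deposited table.

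ALDH3A1 changed least. It had 70.0, 69.1 and 62.2 FPKM in FA-1, FA-2 and FA-3, against 24.4, 31.9 and 34.5 FPKM in control-1, control-2 and control-3. Again the groups did not overlap, but here the lowest FA library was only 1.80 times the highest control. The means were 67.1 ± 4.27 FPKM with FA and 30.3 ± 5.24 FPKM in controls (SD, n = 3 each). The log2 fold change was 1.16 (SE 0.15; edgeR adjusted p = 1.52e-05), a 2.24-fold rise, against 1.22 and an FDR of 2.19e-11 in the authors' deposited table. The refit of the counts is likewise not independent of the authors' selection, since it called all 459 genes, 25.5% higher and 74.5% lower.

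**Figure D1:**
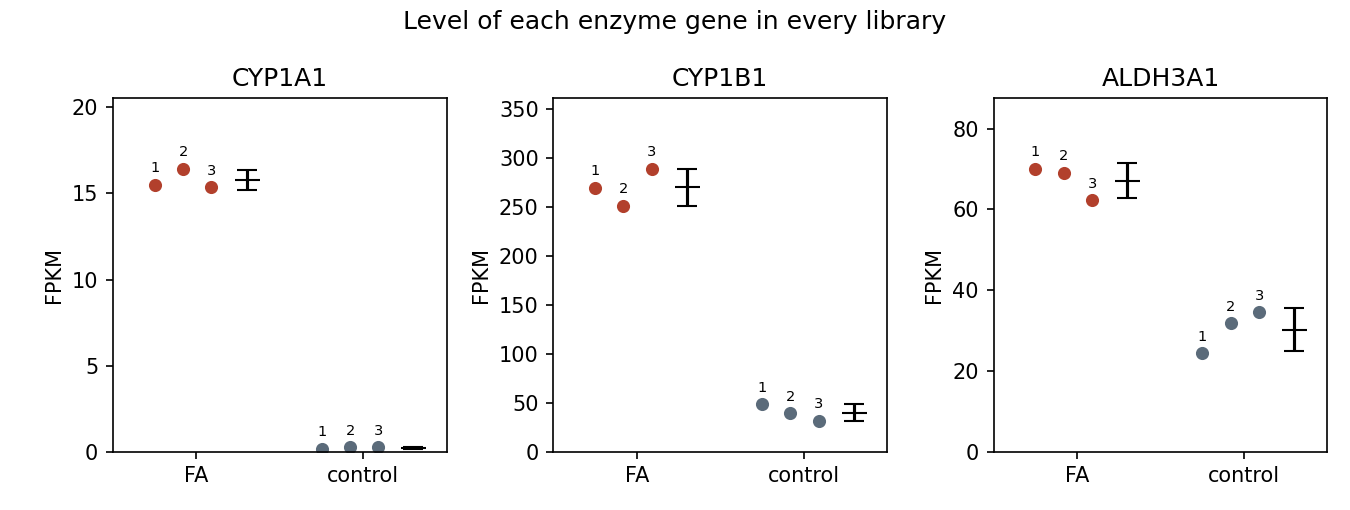
FPKM of CYP1A1, CYP1B1 and ALDH3A1 in each library (y axis, linear from 0, a separate scale per gene), FA left of control; numbers are replicates and the bar beside the points is the mean ± SD over 3 libraries. For each gene the FA libraries lie above the control libraries, with CYP1A1 near 0 in controls and ALDH3A1 with the narrowest gap.

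The size of the fold and the amount of RNA gained ran in different orders. CYP1B1 gained 230.3 FPKM, the third highest gain in the table, ALDH3A1 gained 36.8 FPKM and CYP1A1 gained 15.5 FPKM. In CPM, which are not scaled by length, CYP1B1 took 1418 ± 99.1 with FA and 210.1 ± 44.3 in controls. ALDH3A1 took 115.9 ± 7.0 with FA and 51.7 ± 9.66 in controls, and CYP1A1 took 40.2 ± 1.22 with FA and 0.661 ± 0.11 in controls (SD, n = 3 each). Even at its highest, 16.4 FPKM in FA-2, CYP1A1 stayed below the lowest control value of ALDH3A1, 24.4 FPKM. In rank of level among the 459 genes CYP1A1 stood at 64 in FA libraries and at 445 in controls, and ALDH3A1 at 16 in FA libraries and at 54 in controls.

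**Figure D2:**
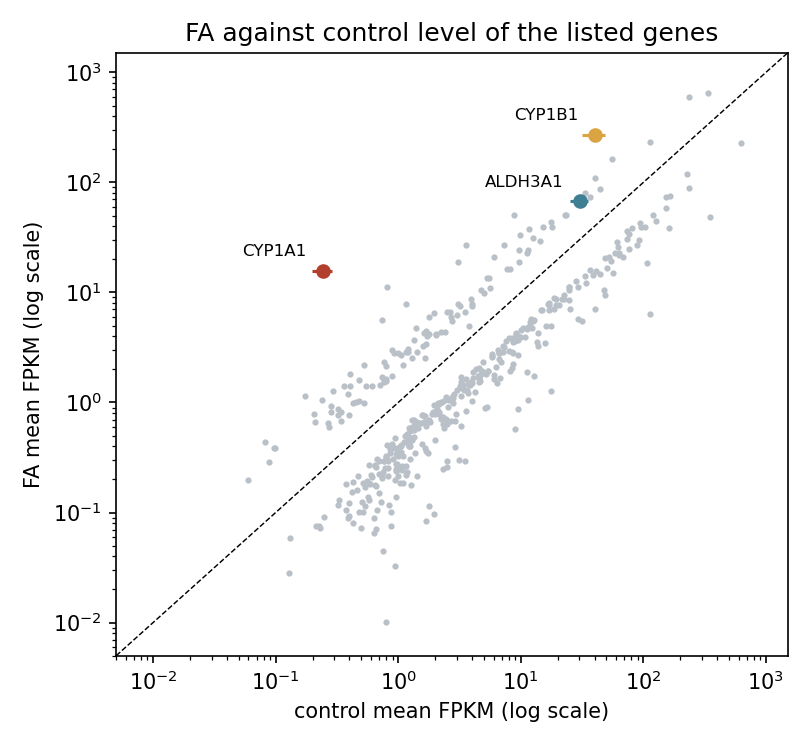
Mean FPKM with FA (y axis, log scale) against mean FPKM in controls (x axis, log scale) for the 459 listed genes in grey, with the 3 enzymes coloured and their SD over 3 libraries as bars; the dashed line marks equal levels. CYP1A1 stands farthest above the line at 15.8 against 0.242 FPKM, while CYP1B1 is among the highest genes at 270.4 against 40.1 FPKM.

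Together the 3 enzymes held 355.7, 337.2 and 366.9 FPKM in FA-1, FA-2 and FA-3, against 73.4, 71.7 and 66.7 FPKM in control-1, control-2 and control-3. The sum was 5.00 times as high with FA. It made up 6.54 ± 0.39% of the FPKM of all listed genes with FA and 0.989 ± 0.13% in controls (SD, n = 3 each), of which CYP1B1 alone made 5.00% with FA and 0.567% in controls. Of the FPKM of the 117 higher genes, the 3 enzymes held 10.5 ± 0.44% with FA and 5.22 ± 0.27% in controls. Of this CYP1B1 made 8.07% with FA and 2.96% in controls, and CYP1A1 0.470% with FA and 0.0179% in controls. The part of ALDH3A1 was not larger with FA, at 2.00% against 2.24% in controls. The listed genes are a selected part of the transcriptome, so these are shares of the table and not of all RNA.

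The make-up of the sum differed between the groups, with larger parts from both P450s in the FA libraries. CYP1B1 formed 76.0%, 74.6% and 78.9% of the 3-enzyme sum in FA-1, FA-2 and FA-3, against 66.5%, 55.2% and 47.8% in control-1, control-2 and control-3. ALDH3A1 formed 19.7%, 20.5% and 16.95% in the FA libraries, against 33.3%, 44.4% and 51.8% in the control libraries. CYP1A1 formed 4.36%, 4.87% and 4.19% in the FA libraries, against 0.260%, 0.371% and 0.403% in the control libraries. None of the 3 shares overlapped between groups. How often this holds for sets of other listed genes was not counted, and every listed gene was selected for differing between the groups. The differences, FA minus control, were 19.98 percentage points for CYP1B1, -24.1 for ALDH3A1 and 4.13 for CYP1A1. Each had p = 0.10 in a two-sided exact permutation test (0.10 adjusted over 3 genes), the smallest p that 3 against 3 libraries allow, so none can pass 0.05. Shares in a library sum to 100% and are not independent of each other.

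**Figure D3:**
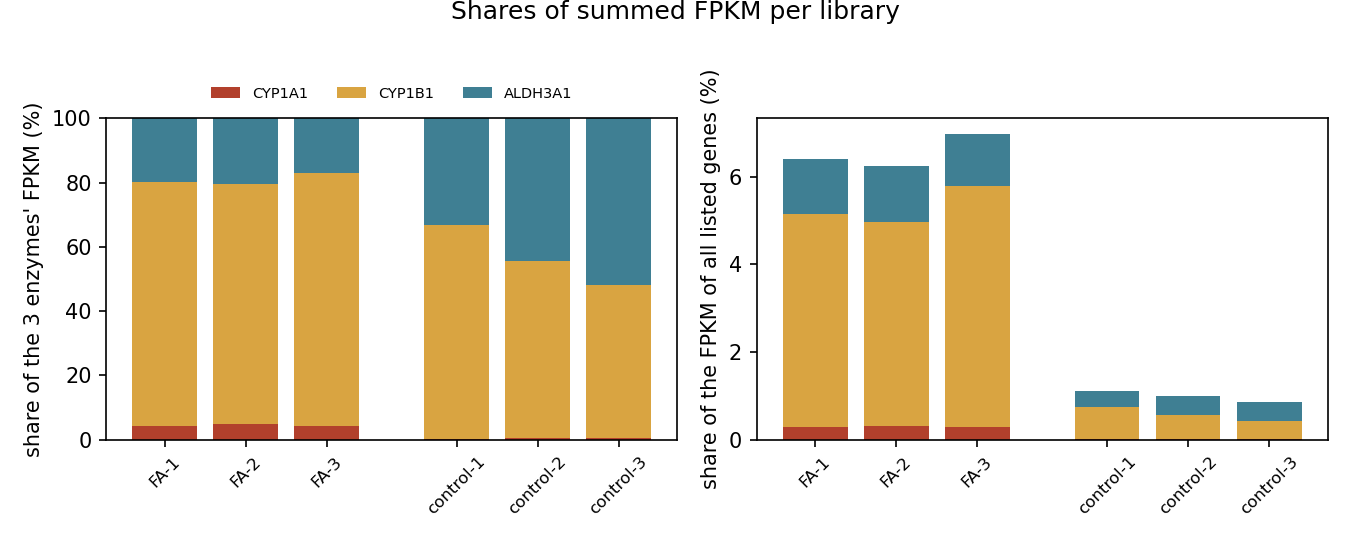
Left, the share of each enzyme in the FPKM summed over CYP1A1, CYP1B1 and ALDH3A1 in each library (y axis, percent); right, their share of the FPKM of all 459 listed genes (y axis, percent), FA libraries left of control libraries. CYP1B1 fills 74.6% to 78.9% of the sum in FA libraries against 47.8% to 66.5% in controls, and the total on the right is 6.54% with FA against 0.989% in controls.

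The ratio of a pair of genes within a library does not depend on its depth and so compares their folds directly. ALDH3A1 was 4.52, 4.21 and 4.05 times as high as CYP1A1 in FA-1, FA-2 and FA-3, against 127.8, 119.7 and 128.4 times in control-1, control-2 and control-3. The log2 ratio of CYP1A1 to ALDH3A1 differed by 4.88 (SE 0.057) between FA and control. This SE comes from the spread of 3 control ratios that rest on 23, 35 and 35 CYP1A1 counts, whose counting error alone is 18.0% per library at their mean, so it understates the error. CYP1B1 was 17.4, 15.3 and 18.8 times as high as CYP1A1 in the FA libraries, against 255.5, 148.8 and 118.6 times in the control libraries, a difference in the log2 ratio of CYP1A1 to CYP1B1 of 3.27 (SE 0.34). CYP1B1 was 3.86, 3.64 and 4.65 times as high as ALDH3A1 in the FA libraries, against 2.00, 1.24 and 0.924 times in the control libraries, a difference in the log2 ratio of 1.61 (SE 0.34). In controls the order of CYP1B1 and ALDH3A1 thus varied, with ALDH3A1 the higher in control-3, and their FPKM ranges overlapped. In every FA library CYP1B1 was the higher. For each of the 3 pairs the groups did not overlap, with p = 0.10 in a two-sided exact permutation test (0.10 adjusted over 3 pairs), again the smallest possible. The share of other pairs of listed genes whose ratios do not overlap was not counted.

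Within groups the controls varied more than the FA libraries. The SD of log2 FPKM was 0.052 with FA and 0.28 in controls for CYP1A1, 0.10 with FA and 0.31 in controls for CYP1B1, and 0.094 with FA and 0.26 in controls for ALDH3A1. Over the 418 listed genes averaging 50 counts or more, its median was 0.18 with FA and 0.24 in controls. In CYP1A1 the coefficient of variation of the depth-scaled counts in controls, 17.4%, was about that of counting alone at its mean count, 18.0%. In CYP1B1 it was 21.1%, against 1.01% from counting alone, and in ALDH3A1 18.7%, against 2.03%, so in these genes the controls differed beyond counting error.

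The control libraries differed from each other along GC content, control-1 most and control-3 the other way. Across the 371 annotated genes averaging 50 counts or more, the deviation of control-1 from the control mean had a Spearman correlation with the GC content of the longest transcript of -0.76, against 0.37 in control-2 and 0.67 in control-3. For the FA libraries, set against the FA mean, the correlations were 0.055, 0.18 and -0.25 in FA-1, FA-2 and FA-3. For any gene the deviations of a group's libraries add up to 0, and genes are not independent replicates. GC content was 44.1% in CYP1B1, 53.3% in CYP1A1 and 59.5% in ALDH3A1, with a median of 51.9% over the 371 genes. On the log2 scale of depth-scaled counts, CYP1B1 deviated from the control mean by 0.31, 0.0013 and -0.31 in control-1, control-2 and control-3. ALDH3A1 deviated by -0.32, 0.099 and 0.22, and CYP1A1 by -0.30, 0.13 and 0.17. CYP1A1 lies near the median GC content, and its deviations had the same signs as those of ALDH3A1. Its spread in controls was about that of counting. The part of GC content in the spread of these genes was not tested. Without control-1 the log2 fold change was 5.78 for CYP1A1, 2.92 for CYP1B1 and 1.02 for ALDH3A1, and without control-3 it was 5.996, 2.61 and 1.28 in the same order of genes. Each remained past an edgeR adjusted p of 0.05. Set against 1 control at a time, the mean FA level was 82.5, 59.2 and 58.6 times that of control-1, control-2 and control-3 for CYP1A1, 5.54, 6.83 and 8.48 times for CYP1B1, and 2.75, 2.11 and 1.94 times for ALDH3A1.

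**Figure D4:**
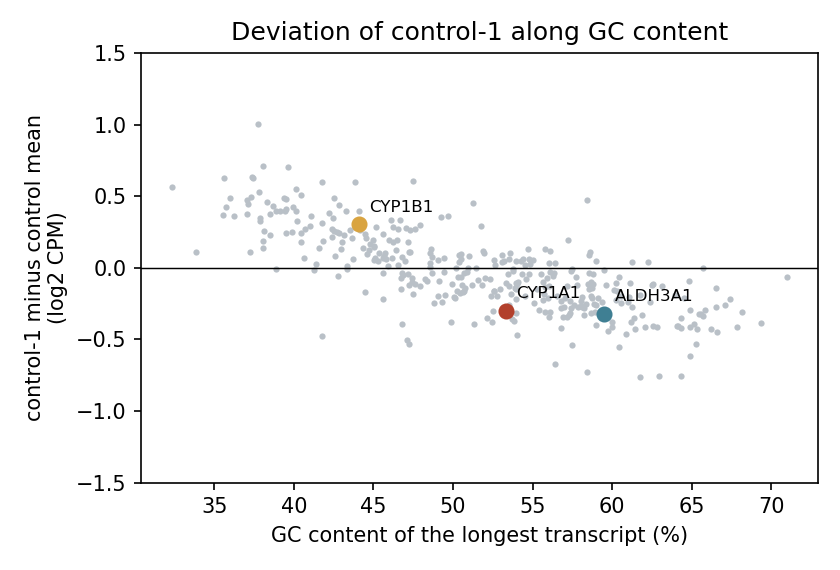
Deviation of control-1 from the mean of the 3 controls (y axis, log2 CPM) against GC content of the longest transcript (x axis, percent) for 371 listed genes in grey, with the 3 enzymes coloured. CYP1B1, of lower GC content, lies at 0.31, and CYP1A1 and ALDH3A1 lie at -0.30 and -0.32.

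The authors' FPKM and counts did not scale alike for CYP1A1. Count divided by FPKM and by depth gives the transcript length that the FPKM implies, and for CYP1A1 this was 2581, 2523 and 2539 bases in FA-1, FA-2 and FA-3, against 2771, 2694 and 2745 bases in control-1, control-2 and control-3. The groups did not overlap, and the FPKM fold was 65.1 where the depth-scaled counts gave 60.7. Such a gap was not particular to CYP1A1. The folds by FPKM and by edgeR were 7.59 and 8.56 for SH3BGR and 0.457 and 0.354 for COL1A1, but 3.44 and 3.44 for TIPARP. The share of listed genes whose groups do not overlap in implied length was not counted. The longest annotated transcript of CYP1A1 has 2685 bases. CYP1B1 had an implied length of 5243 ± 2.21 bases with FA and 5239 ± 6.95 bases in controls, next to 5250 bases in its longest transcript, and ALDH3A1 1728 ± 25.6 bases with FA and 1706 ± 26.1 bases in controls (SD, n = 3 each). For CYP1B1 and ALDH3A1 the folds by FPKM, 6.74 and 2.22, were close to those by counts.

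Other genes of the pathway were read from a list of 22 AHR targets that includes these 3. In the table were 6 of the 22, and 5 of the 6 were higher, where 25.5% of all listed genes were higher. The median authors' log2 fold change of the 6 was 1.81, against -1.22 over the 459 genes. Both values include the 3 enzymes, which were chosen by name as known AHR targets, so neither is independent of that choice. Of the 3 genes beside them, TIPARP and AHRR were higher and NEDD9 lower. The other 16 of the 22 were not analysed here. TIPARP, an ADP-ribosyltransferase that restrains AHR, had 20.6, 20.6 and 21.5 FPKM in FA-1, FA-2 and FA-3, against 7.11, 6.01 and 5.06 FPKM in control-1, control-2 and control-3. AHRR, the AHR repressor, had 3.75, 2.43 and 2.80 FPKM in the FA libraries, against 0.820, 0.774 and 1.08 FPKM in the control libraries. AHRR counts were 547, 588 and 673 in FA-1, FA-2 and FA-3, at implied depths of 39900000, 44700000 and 50900000 fragments. Its depth-scaled counts in the FA libraries thus spread less than its FPKM. TIPARP and AHRR both rose, with log2 fold changes of 1.78 (SE 0.15) and 1.71 (SE 0.17), between those of CYP1B1 and ALDH3A1. NEDD9, a scaffold protein of focal adhesions, fell by 2.18 on the log2 scale (SE 0.33), with 26, 12 and 19 counts in the FA libraries, against 100, 98 and 72 counts in the control libraries. Among TIPARP, AHRR and NEDD9 the highest edgeR adjusted p was 3.82e-05. With scaling factors computed from the listed genes alone, NEDD9 fell less, to -0.95 (edgeR adjusted p = 0.0386) or -0.96 (DESeq2 adjusted p = 0.0334). The edgeR values of TIPARP and AHRR were then larger, at 3.02 and 2.96.

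Among other enzyme families, 4 P450 genes were in the table, and CYP1A1 and CYP1B1 were the higher ones. CYP2J2, an epoxygenase of polyunsaturated fatty acids, averaged 0.458 ± 0.068 FPKM with FA and 1.20 ± 0.31 FPKM in controls. CYP26B1, which breaks down retinoic acid, averaged 0.395 ± 0.029 FPKM with FA and 0.869 ± 0.22 FPKM in controls (SD, n = 3 each). Both fell, from baselines above that of CYP1A1 and far below that of CYP1B1. Of the aldehyde dehydrogenases ALDH4A1, an enzyme of proline breakdown, was the other member in the table, and it fell to 0.648 ± 0.18 FPKM with FA, against 1.53 ± 0.61 FPKM in controls. Of its exonic bases 41.1% are shared with another gene, AL080251.1, so its counts are uncertain. SULT1A1, which sulfonates phenols, fell to 0.811 ± 0.29 FPKM with FA, against 2.15 ± 0.61 FPKM in controls, and DHRS3, a retinal reductase, rose to 6.62 ± 0.38 FPKM with FA, against 2.66 ± 0.70 FPKM in controls. SULT1A1 has near copies in the genome, which makes its counts uncertain. Over these 5 genes the highest edgeR adjusted p was 0.00158. When scaling factors were computed from the listed genes alone, none of CYP26B1, ALDH4A1, SULT1A1 and CYP2J2 passed, and the first 3 of these had values just above 0, as such scaling moves the median listed gene by 1.24 on the log2 scale. No aldo-keto reductase, UDP-glucuronosyltransferase or glutathione transferase gene was among the 459, nor was any of 34 genes written for the AHR complex, for electron transfer and heme supply to P450s and for targets of NRF2, a stress-responsive transcription factor. Their levels were not analysed here.

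**Figure D5:**
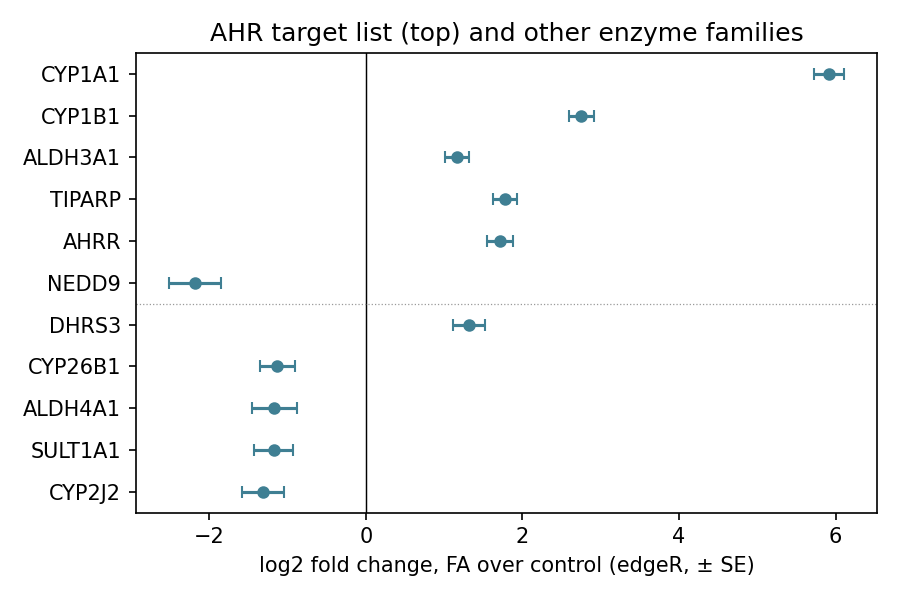
Log2 fold change, FA over control, with its SE (x axis, edgeR on depth-scaled counts) for the 6 listed AHR targets above the dotted line and the other 5 enzyme genes below it. CYP1A1 at 5.91 is farthest right and NEDD9 at -2.18 farthest left. Below the line 4 of the 5 genes are lower, where 74.5% of all listed genes are lower.

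Profiles like those of the 3 enzymes were sought among the other 370 annotated genes averaging 50 counts or more, by the root mean square difference of log2 levels over the 6 libraries, each gene set relative to its own control mean. No gene came near CYP1A1: the closest, SECTM1, a secreted and transmembrane protein, differed by 1.58, and ANGPTL2, an angiopoietin-like protein, by 2.16, followed by SH3BGR at 2.17. CYP1B1 was closest to SH3BGR at 0.25, ANGPTL2 at 0.27 and IGFBP1, a binding protein of insulin-like growth factors, at 0.37. Of the exonic bases of SH3BGR, 62.8% are shared with another gene, so its counts are uncertain. ALDH3A1 was closest to FAM43A at 0.071, and DACT2 also lay near it at 0.11. FAM43A averaged 8.65 ± 0.36 FPKM with FA and 3.94 ± 0.68 FPKM in controls (SD, n = 3 each). As each gene is set to its own control mean, this measure weighs the size of the fold and not the level. The distance of CYP1A1 from all other genes thus largely restates its fold, the largest in the table. No other listed gene starts within 1 Mb of the start of any of the 3.

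Depth was 39900000 to 50900000 fragments per FA library and 43500000 to 48800000 per control library, as implied by counts and FPKM together. Of the 8 markers written for an ovarian cancer line none was in the table, so the identity of the cells was not checked against them. Of the markers of other cells 3 were in it. ALDH3A1 itself is on the list for corneal epithelium, whose other markers, the keratins KRT3 and KRT12, were not analysed here. KRT5 (keratinocytes) and COL1A1 (fibroblasts) were lower, averaging 5.74 ± 0.67 and 0.214 ± 0.093 FPKM with FA, against 29.1 ± 4.97 and 0.469 ± 0.080 FPKM in controls (SD, n = 3 each), and their part in the results was not tested. COL1A1 no longer passed when scaling factors came from the listed genes alone.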

How the data were processed

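The deposited file is 1 table of 459 genes with raw read counts and FPKM per library and, for FA over control, an FDR (an adjusted p-value) and a log2 fold change, all made by the authors, per the file headers. Per the submitters' processing notes the build was GRCh38; software for alignment, counting and testing is not given in the sources used here. Every gene had changed by 1.00 or more on the authors' log2 scale, with no FDR above 0.00977. Members, lists, tests and alternatives were chosen with earlier results of these data known.

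Depth was taken from the ratio of counts to FPKM in 180 genes (minimum 200 counts per library), on the scale of 16 genes with 1 annotated transcript. Counts of all 459 genes were fitted with edgeR 4.0.16 (R 4.3.3; quasi-likelihood, group as only term, library sizes set to that depth, Benjamini-Hochberg over the 459, threshold 0.05). The SE is the absolute log2 fold change over the square root of F. Ratios and shares were compared by exact permutation tests. Named genes are the 3 enzymes, listed members of the fixed lists, and the 3 genes most alike to each (pseudocount 0.01 FPKM), of which 1 is not reported here. Intervals cover counting error only. Annotation is GENCODE 29. DESeq2 1.42.0 was an alternative.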

Additional observations from a re-analysis of the deposited data

How the results depend on the processing

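The log2 fold changes of the 3 enzymes stayed positive and past an adjusted p of 0.05 under each of 13 alternatives, from 5.78 to 7.16 for CYP1A1, from 2.61 to 3.99 for CYP1B1 and from 1.02 to 2.41 for ALDH3A1 (largest adjusted p 0.000245). The high ends come from scaling over the listed genes alone, which adds 1.24 to the median listed gene with TMM and likewise with DESeq2's own size factors. With these 81 and 87 genes were called lower, against 342, and under both ALDH4A1 (0.077 and 0.070), CYP26B1 (0.12 and 0.11) and SULT1A1 (0.072 and 0.063) lay just above 0 on the log2 scale, with a sign opposite to that reported, and did not pass the test. COL1A1 (-0.25 and -0.26) and CYP2J2 (-0.074 and -0.083) kept their sign and did not pass. Leaving out 1 library gave 5.78 to 5.996 for CYP1A1, 2.61 to 2.92 for CYP1B1 and 1.02 to 1.28 for ALDH3A1, with 117 genes higher and 342 lower each time. The log2 ratio differences then ran from 2.96 to 3.51 (CYP1A1 over CYP1B1), 4.84 to 4.92 (CYP1A1 over ALDH3A1) and 1.35 to 1.91 (CYP1B1 over ALDH3A1), and the share differences from 3.93 to 4.27, 15.6 to 24.97 and -29.1 to -19.8 percentage points for CYP1A1, CYP1B1 and ALDH3A1. With a pseudocount of 0.1 FPKM the ratio differences were 2.77 (CYP1A1 over CYP1B1), 4.38 (CYP1A1 over ALDH3A1) and 1.61 (CYP1B1 over ALDH3A1). From counts per annotated kilobase they were 3.17, 4.76 and 1.59 in the same order of pairs. With the replicate number as a block the log2 fold changes were 5.92, 2.77 and 1.18 for CYP1A1, CYP1B1 and ALDH3A1. Same-numbered libraries had correlations of 0.014, 0.11 and -0.16 in their deviations, and differently numbered ones ran from -0.17 to 0.18. With 3 libraries per group these values cannot show whether same-numbered libraries share a culture or day. By Pearson correlation 0 of the 3 genes most alike to CYP1A1 or to CYP1B1 and 1 of those to ALDH3A1 were found again.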
